A study of Mus musculus with 2 samples.

Results

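The EGF ligands epiregulin (Ereg), HB-EGF (Hbegf), amphiregulin (Areg), TGF-α (Tgfa) and betacellulin (Btc), the neuregulin gene Nrg1 and the 4 ErbB receptor genes (Egfr, Erbb2, Erbb3 and Erbb4) were examined in the mouse heart 3 days after myocardial infarction. These 10 genes were chosen by name, and their values were read from every probe set annotated with that 1 gene symbol. Of the 10 genes, 9 had such a probe set, 20 probe sets in all, among 18193 genes on the array. Areg had none and was not analysed here. Where a gene had several, the brightest one stood for it, and the gene was compared if this probe set lay at or above the array median in either pool. This left 5 of the 10 genes and 11961 genes overall.

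Both groups were male C57BL/6J mice, 10 weeks old, and the labels name no other allele or agent. The infarct group had the left anterior descending coronary artery tied permanently, and the sham group had the same surgery without the ligation. RNA from 3 hearts was mixed per group and hybridised to 1 array, so that each value stands for 1 pool. Whether infarcted and remote muscle were separated is not given in the sources used here, and 1 time point was sampled. Without replicates nothing could be tested, and each difference below is the log2 value of the infarct pool minus that of the sham pool. The only error that could be measured was how far probe sets of 1 gene lie apart, with an SD of 0.23 (5190 genes with at least 2 bright probe sets). It covers the probes and not the mice. All 7 cardiomyocyte markers (Myh6, Tnnt2, Tnni3, Actc1, Myl2, Ryr2 and Pln) were bright on both arrays, with a mean log2 value of 14.41 in sham and 14.24 in infarct, as the label of heart requires.

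ErbB receptors are tyrosine kinases that pair with one another after a ligand binds. The EGF ligands are made as membrane proteins and are cut loose by proteases called sheddases. HB-EGF, epiregulin and betacellulin bind EGFR and ERBB4, whereas TGF-α and amphiregulin bind EGFR. Neuregulin-1 binds ERBB3 and ERBB4. ERBB2 has no ligand of its own and serves as the partner, and ERBB3 has little kinase activity, so that it signals through its partners. In the heart, neuregulin-1 from endothelial cells acts on ERBB4 and ERBB2 of cardiomyocytes, and antibodies against ERBB2 given to patients with cancer can weaken the heart.

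The ligand genes that could be compared, Ereg and Hbegf, were both higher in the infarct pool, and no receptor gene compared differed by 2-fold. Hbegf was 2.99-fold higher. The values of Ereg differ by 3.86-fold, but its sham value was dim, so that neither this size nor its order against Hbegf is exact. By their brightest probe sets the receptor genes lay between -0.40 (Erbb3) and 0.23 (Erbb2), while other bright probe sets of Egfr reached 0.59. Thus 2 of the 5 members compared were at least 2-fold higher and 0 were lower, while among all genes compared 3.73% were at least 2-fold higher and 1.26% at least 2-fold lower. Both ligand genes also passed a difference of 1.4, the threshold that the study used, as did 1.49% of all genes. Ereg entered the comparison through its infarct value alone, so that it could only be counted because it was higher there, and the counts are therefore given as a description. The filter also sets the contrast between ligands and receptors: the median of the ligand genes compared lay 1.87 above that of the receptor genes, but 0.23 above it when the dim members were included.

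**Figure D1:**
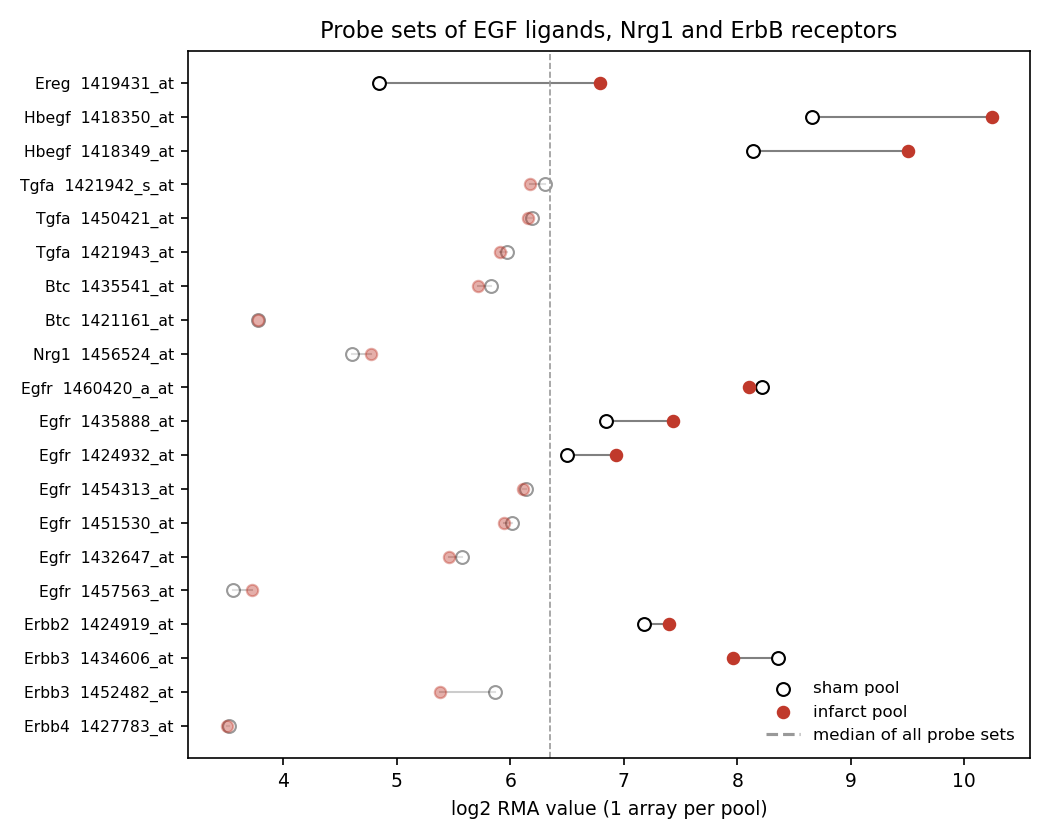
Log2 value of each of the 20 probe sets of the 9 genes for sham (open circles) and infarct (red), 1 array each, with the median of all probe sets as a dashed line and probe sets under it on both arrays drawn pale. The probe sets of Ereg and Hbegf show the longest shifts to the right (1.36 to 1.95), the 3 bright probe sets of Egfr differ in direction, and both probe sets of Erbb3 shift to the left.

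Among the ligands, Hbegf rests on the firmest signal. HB-EGF is a heparin-binding growth factor made by macrophages, muscle and other cells, and its membrane-bound form is the entry receptor for diphtheria toxin. Its brighter probe set (1418350_at) had a value of 8.66 in sham and 10.24 in infarct. The other one (1418349_at) gave 8.14 and 9.50. Both were brighter than the median on both arrays, and their differences, 1.58 and 1.36, lay apart by about the SD between probe sets of a gene. The smaller of them was 2.58-fold. Hbegf was the 127th highest of the 11961 genes compared. Its neighbours in that order, by the log2 difference over 2 arrays, were Tnnt3 (1.59) and Slc39a6 (1.58).

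Ereg had the largest measured difference of the 9 genes, on a weaker signal than Hbegf. Epiregulin is a ligand of low affinity and long action that is known from inflamed and repairing tissue. Its only probe set (1419431_at) had a value of 4.84 in sham, below the array median of 6.36, and of 6.79 in infarct, above the median of 6.35. The difference was 1.95, the 59th highest. Because the sham value carried little signal, the size of this difference is less certain than that of Hbegf. The genes on either side of it in the order were Cdca2 (1.95) and Mcm3 (1.95), which act in cell division and DNA replication.

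Tgfa, Btc and Nrg1 were dimmer than the median on both arrays, and none of their probe sets differed by more than 0.16 in either direction. TGF-α, the classical ligand of EGFR, was read by 3 probe sets with values of 5.98 to 6.31 in sham and 5.91 to 6.17 in infarct. Their differences ran from -0.13 to -0.040. The brighter probe set of Btc had 5.83 and 5.72, and the dimmer one had 3.77 on both arrays. Nrg1, read by 1 probe set, had 4.61 in sham and 4.77 in infarct. A dim value gives no level, and a change of these genes in a few cells would not be detectable here.

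Ereg lies in a row of EGF ligand genes, of which the others measured were dim on both arrays. In the RefSeq annotation of GRCm38.p6, the protein-coding genes Epgn, Ereg, Areg and Btc follow each other in this order. Epgn, which encodes the ligand epigen, was dim with 4.60 in sham and 4.90 in infarct (difference 0.30), and Btc differed by -0.11. Beyond Epgn lay Mthfd2l (-0.14) and the chemokine gene Cxcl2, which was higher in the infarct pool with 5.73 and 7.47 (difference 1.73, dim in the sham pool). Beyond Btc lay Parm1 (-0.047). With Areg unmeasured, the run of neighbours is incomplete.

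**Figure D2:**
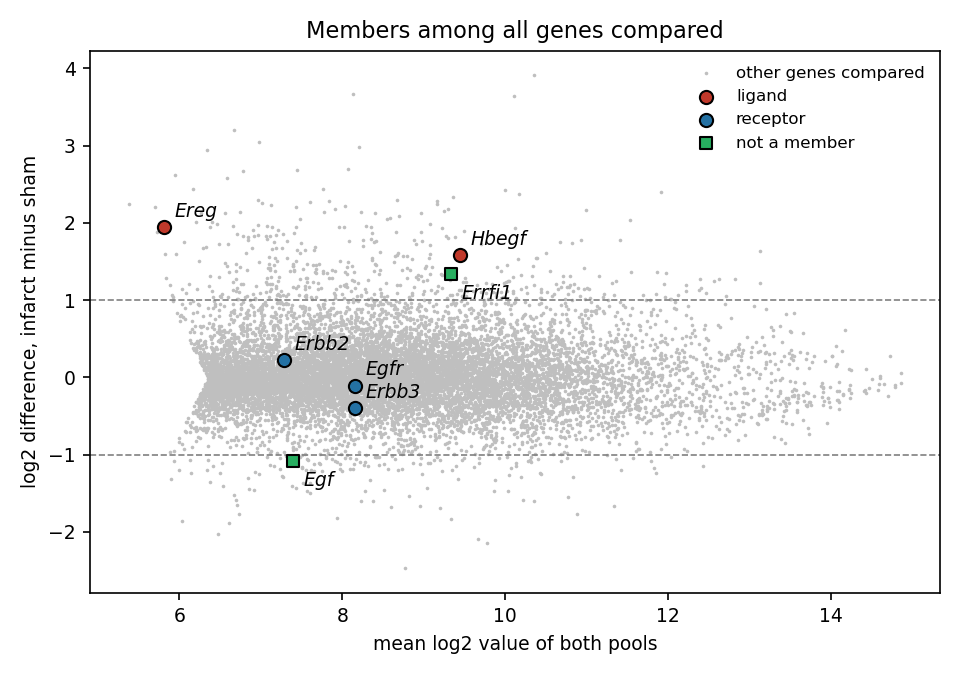
Log2 difference (infarct minus sham) of the 11961 genes compared plotted against the mean of the log2 values of both arrays, a point for each gene, with ligand members in red, receptor members in blue, and Egf and Errfi1 as green squares. Ereg (1.95) and Hbegf (1.58) lie above the upper dashed line of a 2-fold difference, the receptor genes, each drawn by its brightest probe set, lie between -0.40 and 0.23, and Egf (-1.08) lies below the lower line.

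Of the receptors, Erbb3 was the lowest. ERBB3 is the neuregulin receptor with the weak kinase, known from Schwann cells and epithelia. Its bright probe set (1434606_at) had 8.36 in sham and 7.96 in infarct, a difference of -0.40, and 13.1% of all genes compared had a lower one. The dimmer probe set (1452482_at) had 5.87 and 5.38 (difference -0.49). Both probe sets thus lay on the same side of 0. The difference was -0.079 after centring the arrays on the hybridisation controls and -0.76 after centring them on the housekeeping genes. Schwann cell markers went both ways beside it: 4 of 8 could be compared, with differences from -0.85 (Cdh19) to 0.13 (Mbp, whose 8 probe sets ran from -1.19 to 0.13), and Sox10, a defining factor of these cells, differed by 0.11. The mean log2 value of the 6 measured markers was 6.75 in sham and 6.62 in infarct. Of 6 mesothelial and epithelial markers, with a mean of 7.65 and 7.11, 5 lay below 0, as did 5962 of the 11961 genes compared. Epcam lay above 0 by its brighter probe set (0.12) and below 0 by the other (-0.77). Upk3b was 2.51-fold lower, and 1.26% of all genes compared were at least 2-fold lower. The differences of Wt1 (-0.25) and Krt18 (-0.19) were smaller than the shift of 0.32 made by the hybridisation controls as zero. The part of these cell types in the difference of Erbb3 was not tested. In RNA of a tissue, fewer cells of a type and less RNA per cell cannot be told apart.

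Egfr gave different answers by probe set. EGFR is the receptor that the EGF ligands share. The brightest of its 7 probe sets (1460420_a_at) had 8.22 in sham and 8.11 in infarct, a difference of -0.11. The second (1435888_at) had 6.85 and 7.44, and the third (1424932_at) had 6.50 and 6.93, so that both were higher in the infarct pool, by 0.59 and 0.43. The spread of these 3 values, from -0.11 to 0.59, exceeds the SD between probe sets of a gene, and their mean was 0.30. The other 4 probe sets were dim and lay between -0.12 and 0.16. No direction is therefore given for Egfr. Which transcripts each probe set reads was not analysed here.

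Erbb2 and Erbb4 have 1 probe set each. Erbb2, the receptor without a ligand, had 7.18 in sham and 7.40 in infarct (difference 0.23), about the size of the SD between probe sets, and the difference was -0.14 when the housekeeping genes set the zero. Erbb4, the neuregulin receptor of cardiomyocytes, had 3.52 and 3.50. This is close to the lowest value of any probe set on either array (2.95), so that its probe set carried no usable signal, and the value says nothing about whether the gene is expressed in the heart.

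The promoters of the receptor genes that could be compared and that have an entry in the RefSeq table of GRCm38.p6, Egfr and Erbb2, are shown as the 250 bases before the annotated start, because these are the regulatory windows of the receptors described above. Both lie on the plus strand of chromosome 11, Egfr at chr11:16751953-16752202 and Erbb2 at chr11:98412234-98412483. Capitals mark a match to GGAATG, the letters bound by the TEAD transcription factors with which VGLL proteins act, searched on both strands.
Egfr: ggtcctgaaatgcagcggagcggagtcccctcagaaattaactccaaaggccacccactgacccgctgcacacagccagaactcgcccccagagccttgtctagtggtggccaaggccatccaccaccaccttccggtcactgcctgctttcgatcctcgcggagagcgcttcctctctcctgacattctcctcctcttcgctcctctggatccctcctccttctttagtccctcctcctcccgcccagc
Erbb2: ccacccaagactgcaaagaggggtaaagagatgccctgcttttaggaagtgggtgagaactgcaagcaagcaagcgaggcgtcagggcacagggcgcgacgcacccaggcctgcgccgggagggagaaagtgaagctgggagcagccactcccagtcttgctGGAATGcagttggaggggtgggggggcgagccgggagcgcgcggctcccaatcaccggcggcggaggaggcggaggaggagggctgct
Erbb2 holds 1 match, which begins at position -88 counted from the start, and Egfr holds none. Of all 32851 windows of the same length, 12.6% hold at least 1. Both windows are rich in G and C, with 60.8% in Egfr and 66.0% in Erbb2, against a median of 52.4% over all windows, and neither holds the TATA box letters TATAAA. A match is a description of letters and shows no binding.

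**Figure D3:**
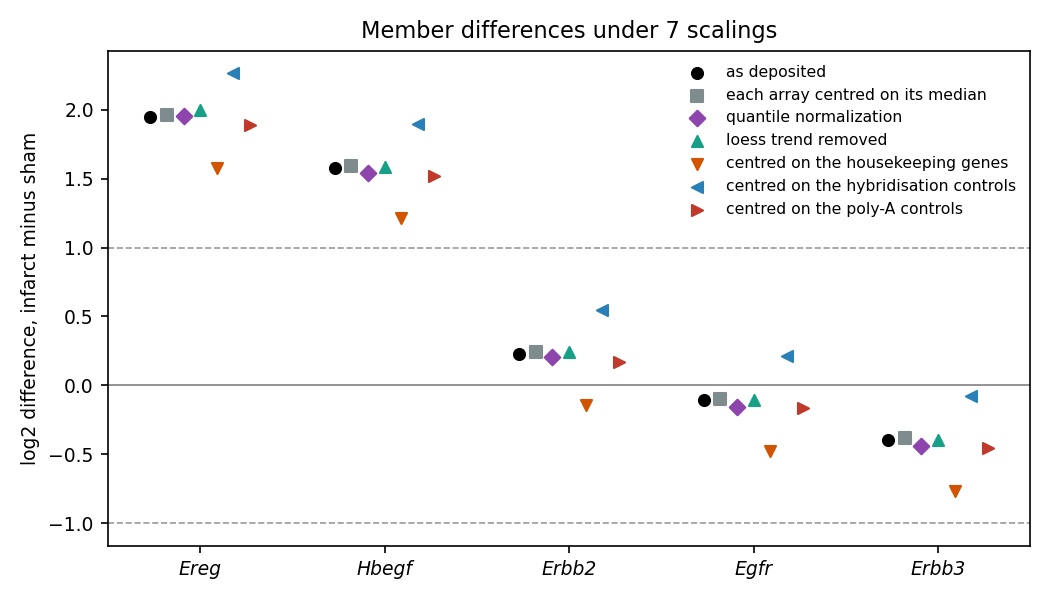
Log2 difference (infarct minus sham) of the 5 members compared, as deposited (black) and under 6 other scalings of the 2 arrays, 1 symbol per setting, with 2-fold marked by dashed lines. Ereg and Hbegf lie above the upper line under every scaling shown (1.58 to 2.26 and 1.21 to 1.90), Erbb2 and Egfr each cross 0 under 1 scaling, and Erbb3 lies below 0 throughout.

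The zero of the scale matters for the small differences. Centring the arrays on 10 housekeeping genes moved the median of all genes by -0.37, and centring on 18 hybridisation control probe sets moved it by 0.32. The other 4 scalings moved it little, the poly-A controls by -0.057 and the rest by less. Of the 10 housekeeping genes, 9 lay above 0, by up to 1.12 (Gusb). Of all genes compared, 446 were at least 2-fold higher and 151 lower as deposited, against 200 and 631 with the housekeeping genes and 962 and 40 with the hybridisation controls as zero. Ereg and Hbegf were at least 2-fold higher under each of these 6 scalings. A receptor difference smaller than these shifts has no settled sign.

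The other genes of the pathway were described by 8 lists of 84 genes. Of these, 76 had a probe set of their own symbol and 71 could be compared. Over all lists, 5 genes (7.04%) were at least 2-fold higher and 1 (1.41%) was at least 2-fold lower, against 3.73% and 1.26% of all genes compared. The share lower is thus near that of all genes. Their median difference was 0.23, against 0 over all genes compared, and it was -0.13 after centring on the housekeeping genes. With those genes as zero 1 of the 71 pathway genes was at least 2-fold higher, against 200 of the 11961 genes compared. The share higher was then near that of all genes. With the hybridisation controls as zero 14 were higher and 0 lower, against 962 and 40 of all genes compared.

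Egf was the gene at least 2-fold lower. It encodes epidermal growth factor, the ligand after which the family is named. Its value was 7.94 in sham and 6.86 in infarct, a difference of -1.08 (2.11-fold) by 1 probe set, above the median on both arrays. Egf thus lay on the other side of 0 from Ereg and Hbegf. Nrg2, a second neuregulin gene, differed by -0.14, while its dimmer probe sets gave -0.13 and -0.64. Epgn, Nrg3 (-0.16) and Nrg4 (-0.23) were dim on both arrays. Beside Egf, the 6 mesothelial and epithelial markers ran from -1.33 (Upk3b) to 0.12 (Epcam), with Msln at -0.97, Wt1 at -0.25 and Krt18 at -0.19. The dimmer of the 2 probe sets of Epcam gave -0.77. Of 5 adipocyte markers 2 could be compared, the hormone gene Adipoq (-1.52) and Retn (-0.14), while Lep was dim on both arrays (0.20). Adipoq was dim in the infarct pool and entered through its sham value alone, so that the filter set its side of 0. The mean of the 3 measured was 5.99 in sham and 5.51 in infarct. The part of these cell types in the difference of Egf was not tested.

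Of the 10 genes for sheddases and their regulators, 9 lay above 0, as did 5923 of all 11961 genes (median 0.35, or -0.017 after centring on the housekeeping genes). Adam12, a metalloprotease that can release HB-EGF, was 2.76-fold higher, with 7.67 in sham and 9.14 in infarct, and its other probe set gave 1.05. Adam9 (0.89) and Adam19 (0.85), related metalloproteases, followed. The main sheddase of the EGFR ligands, Adam17, differed by 0.28, and Rhbdf2, whose product iRhom2 carries ADAM17 to the cell surface, by 0.19. Timp3, which encodes an inhibitor of ADAM17, was the exception below 0 (-0.37), although its 4 probe sets ran from -0.37 to 0.16. Adam17, Rhbdf2 and Timp3 were named for their role after their values were seen. Among molecules that hold ligands at the membrane, Cd44 was 2.16-fold higher (9.40 and 10.51), although its 4 probe sets ran from -0.13 to 1.26. Itgb1, the β1 integrin gene (0.70, with 6 probe sets from -0.19 to 0.73), and Gpc1, a heparan sulphate proteoglycan gene (-0.57), came next.

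Genes between the receptors and the nucleus differed little. None of 12 adaptor genes, 7 genes of the RAS-ERK cascade and 8 genes of the PI3K-AKT branch differed by 2-fold. The medians of these lists were 0.073, 0.023 and -0.13, and each changed sign under at least 1 scaling. The largest differences were those of the adaptor genes Crk (0.48, with 5 probe sets from -0.16 to 0.48), Shc1 (0.39) and Gab2 (0.36), of Nras (0.65), the MEK1 gene Map2k1 (0.46) and the kinase gene Rps6ka3 (0.43, with 3 probe sets from -0.14 to 0.69), and of the PI3K subunit genes Pik3r1 (-0.42) and Pik3cb (0.40) and the kinase gene Akt2 (-0.41). These proteins are switched on by phosphorylation or by GTP, which an array of mRNA does not measure.

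**Figure D4:**
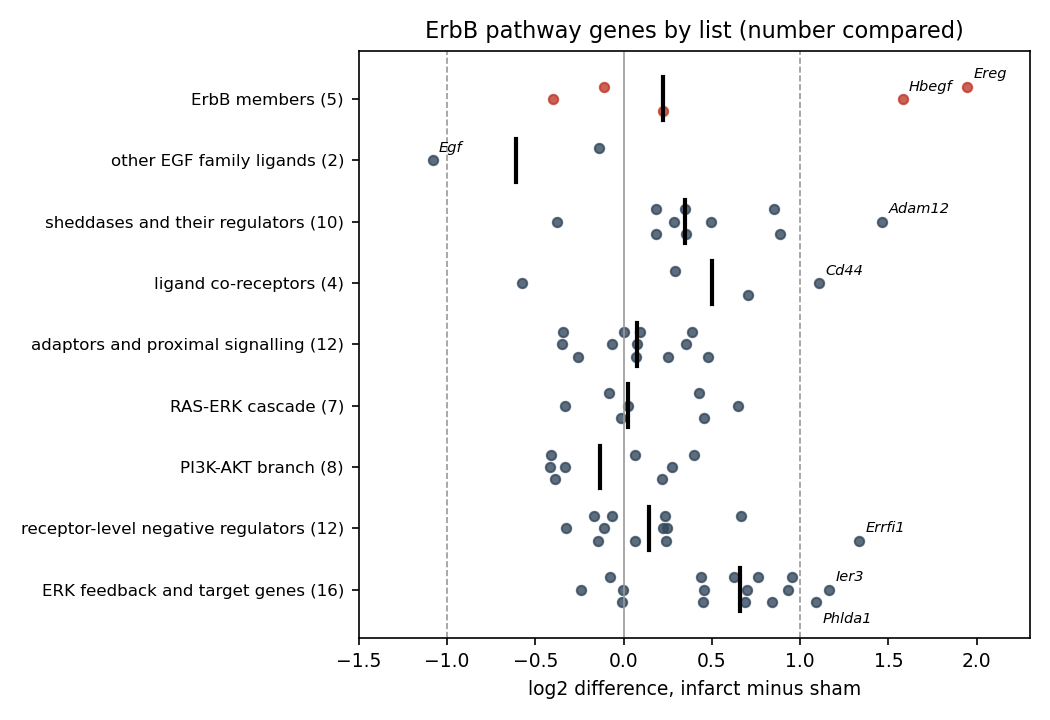
Log2 difference (infarct minus sham) of each gene compared in the member list (red) and in 8 pathway lists (dark), with the number compared in brackets, the median of each list as a black bar and 2-fold as dashed lines. The list of ERK feedback and target genes has the highest median (0.66), and the genes past 2-fold are labelled, with Egf (-1.08) the only one on the left.

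At least 2-fold higher were 1 of 12 receptor-level negative regulators and 2 of 16 ERK feedback and target genes, against 3.73% of all genes compared. Errfi1, which encodes MIG6, an inhibitor that binds the kinase domain of ErbB receptors, had 8.67 in sham and 10.00 in infarct. This is a difference of 1.33 (2.52-fold), and its second probe set gave 1.29. Of the other 11 receptor-level regulators, none reached 2-fold, and Ptpn1, a phosphatase gene (0.66), and Lrig2 were next in size. The 2 probe sets of Lrig2 differ in direction (-0.33 for the brighter and 0.66 for the other), so that none is given for it. The 16 ERK feedback and target genes had a median of 0.66, and 12 of them lay above 0, as did 5923 of the 11961 genes compared. Fosl1 (0.70, dim in the sham pool) entered through its infarct value alone, so that the filter set its side of 0. Ier3, an early response gene with a part in cell survival (1.16), and Phlda1 (1.09) were at least 2-fold higher, and Myc followed (0.96). The median was 0.29 after centring on the housekeeping genes and 0.97 after centring on the hybridisation controls. These genes respond to many growth factors and cytokines, and no value here ties them to ErbB receptors.

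Markers of cells that enter the infarcted heart were higher beside Ereg, Hbegf and Errfi1. All 6 monocyte and macrophage markers lay above 0, as did 5923 of the 11961 genes compared. Their mean log2 value was 9.42 in sham and 10.22 in infarct, and none of the 6 was dim. Cd68, Ccr2 (4 probe sets from 0.35 to 1.16) and Fcgr1 were at least 2-fold higher, against 3.73% of all genes compared. The smallest difference, that of Csf1r (0.23), was smaller than the shift of -0.37 made by the housekeeping genes as zero. Of the 6 neutrophil markers 5 could be compared, all above 0 and 3 of them at least 2-fold higher, namely S100a8 (1.72), S100a9 (1.54) and Csf3r (1.11). The mean of all 6 was 7.04 in sham and 8.14 in infarct. Cxcr2 was dim in the sham pool and entered through its infarct value alone, so that the filter set its side of 0. Mmp8 was dim on both arrays. By their brightest probe sets, the 5 endothelial markers lay between -0.14 and 0.56, and the 6 fibroblast markers between -0.34 and 0.65. Other probe sets reached 1.07 for Col1a2 and -0.72 for Dcn. Of 6 mast cell markers 4 could be compared, from -0.98 (Cma1) to 1.21 (Kit). Only Cma1 was bright on both arrays. Kit was dim in the sham pool, and Cpa3 (-0.64) and Tpsb2 (-0.16) were dim in the infarct pool, so that the filter set their sides of 0. Of 8 lymphocyte markers 2 could be compared, Cd3e (-0.042) and Il7r (1.04, dim in the sham pool). The part of these cells in the differences of these genes was not tested.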

How the data were processed

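The authors froze the hearts, extracted RNA with ISOGEN, purified it with an RNeasy kit, mixed that of 3 hearts for each array and measured it, as biotin-labelled cRNA, on the GeneChip Mouse Genome platform. The values they deposited came from RMA, which corrects for background, normalises arrays against each other and gives 1 log2 value for each probe set. The software version is not given in the sources used here. Normalisation of this kind removes a difference in total mRNA, and RMA tends to understate the fold of weak probe sets. The number of arrays limits the precision.

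Gene names came from the platform annotation: of 45101 probe sets, 34945 had 1 symbol, 932 several, 9160 none, and 64 were controls. Differences were infarct minus sham, and genes were counted at a log2 difference of 1. With 1 array per group, neither a test nor leaving out a sample was possible. The members and the gene lists were chosen with earlier results of these data known. Every member was named, and of each pathway list the 3 genes with the largest difference and any further gene at least 2-fold different. Marker lists were given by their range and defining genes. The genes next to a member in the order of differences were also named by rule. Protein sequences were not analysed here. The alternatives were 6 scalings, 2 choices of probe sets, 2 filters on dim probe sets, a threshold of 1.4 and means in place of medians. The counting of genes was tried on simulated shifts larger than the threshold, with little noise. This checks the counting alone and says nothing about the precision of the measured values. Promoters were taken from RefSeq (GRCm38.p6). Windows on the chromosome that carries Hbegf were left out when those of the members were collected. Of the 10 members, 6 had a window in what remained. Ereg, Nrg1 and Erbb3 had none, and the lack of one for Hbegf says nothing about RefSeq. Python 3.11.15, numpy 2.4.6, pandas 2.3.3, statsmodels 0.14.6 (loess span 0.4) and matplotlib 3.10.9 were used.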

Additional observations from a re-analysis of the deposited data

How the results depend on the processing

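Under 12 alternatives, no member difference that was 2-fold or more changed sign. The number of members at least 2-fold higher stayed at 2 except with the 75th percentile as the filter on dim probe sets, where Ereg was too dim and the count was 1. Ereg ran from 1.58 to 2.26 in the 9 alternatives that gave it a value, Hbegf from 1.21 to 1.90 in 10 and Erbb3 from -0.76 to -0.079 in 10. Egfr (-0.47 to 0.21) and Erbb2 (-0.14 to 0.54) each changed sign in 1 of 9. With the mean over its 7 probe sets Egfr was too dim to be compared and is not in this count. That mean difference was 0.12, on the other side of 0 from its brightest probe set. Ereg and Erbb2 have 1 probe set each, so that the 2 choices of probe sets and the removal of the filter could not change their values. The median of the ligand genes exceeded that of the receptor genes by 1.87, and by 0.23 without a filter, when the dim members entered. Of the other pathway genes, the number at least 2-fold higher (5) was 1 after centring on the housekeeping genes, 14 after centring on the hybridisation controls and 1 at a threshold of 1.4. The number at least 2-fold lower (1) was 0 after centring on the hybridisation controls, with the 75th percentile filter and at the threshold of 1.4. Their median (0.23) was -0.13 after centring on the housekeeping genes and 0.55 after centring on the hybridisation controls. Which zero is right was not tested. Over all genes, the higher and lower counts (446 and 151) were 200 and 631 after centring on the housekeeping genes, 962 and 40 with the hybridisation controls, 391 and 198 with the poly-A controls and 178 and 34 at the threshold of 1.4. No paired analysis was possible because each group has 1 array. The signal over background limits Tgfa, Btc, Nrg1, Erbb4 and the sham value of Ereg.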

Other observations

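Areg, which could not be measured here, has a promoter window in the RefSeq table. Its 250 bases before the start hold the cyclic AMP response element letters TGACGTCA, which begin at position -61 counted from it, and the TATA box letters TATAAA. Of all windows, 1.55% hold the former and 7.59% the latter. The windows of Btc, Tgfa, Egfr, Erbb2 and Erbb4 hold neither. The AP-1 letters TGACTCA, searched on both strands, stand in none of the 6 members' windows and in 4.46% of all windows. The CArG box of serum response factor stands in none of the 6 and in 1.47% of all. Ereg and Hbegf, the members at least 2-fold higher, are not among the 6, nor are Nrg1 and Erbb3. For Hbegf this follows from leaving out its chromosome. Nothing is drawn from these absences.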
